A study of Bos taurus with 2 samples.

Results

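The cells described here are the GLI3- and CDON-high cells of day 25 bovine embryos. They were selected on their own measured counts of the genes in the rule, as cells with 500 or more detected genes, 3 or more UMIs of GLI3, 1 or more of CDON, at most 1 of RSPO2, and fewer than 2 UMIs of the collagen VI genes COL6A1, COL6A2 and COL6A3 together. A UMI is a molecular tag that counts each captured RNA molecule once. The rule gave 517 cells (246 in replicate 1 and 271 in replicate 2) of 4437 cells in all, or of 4359 with 500 or more genes. They were 12.7% and 11.2% of the cells with 500 or more genes in replicates 1 and 2. The study profiled day 25 bovine embryos that carried bovine embryonic stem cells, so host and stem cell descendants were mixed in each suspension. The embryos had been dissociated with papain and sorted, and libraries were made with a 10x Genomics 3' v3.1 droplet kit. The 2 samples form 1 group with no control group, so cells were compared with other cells of the same suspension. Nothing states that the samples came from different embryos, so the spread between them may be technical. P-values rest only on how far class differences varied between these 2 samples, together with a spread estimated over all genes. No genotype, breed or stem cell line is given for the group.

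GLI3 is a zinc finger transcription factor that hedgehog signalling regulates. Without hedgehog ligand it is processed to a repressor, and with ligand it is kept from that processing, so that cells read the ligand's gradient partly through GLI3. CDON is a cell surface protein that binds hedgehog ligands and acts as a coreceptor beside PTCH1 and SMO. In the vertebrate neural tube, Sonic hedgehog spreads from the notochord and floor plate and sets ventral identities, whereas WNT and BMP ligands from the roof plate set dorsal ones. Early neural progenitors of the tube express SOX2 and divide before they become neurons.

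GLI3 and CDON chose the cells, so their levels are a description. Levels are CPM, the UMIs summed over the cells of a class in 1 replicate and scaled to a common library size. GLI3 stood at 832 and 770 CPM in the high cells of replicates 1 and 2, and at 224 and 206 CPM in the other cells of the same total UMI range. CDON stood at 333 and 300 CPM against 79.7 and 70.6 CPM. The median high cell held 5 GLI3 UMIs and 2 CDON UMIs in each replicate, and the highest GLI3 counts were 25 and 29. RSPO2 stood at 0.569 and 1.46 CPM against 32.4 and 38.5 CPM, and COL6A1 had no UMI in a high cell. Many cells lay next to the thresholds. Exactly 3 GLI3 UMIs were seen in 60 and 80 of the high cells, and 86 and 91 cells that otherwise met the rule had exactly 2. CDON had exactly 1 UMI in 114 and 122 high cells, and 195 and 213 cells that otherwise met the rule had none. At the GLI3 threshold, high cells with exactly 3 UMIs held PAX3 at 205 and 190 CPM, and the cells with exactly 2 held it at 129 and 156 CPM. HS6ST2 went the other way, at 130 and 97.6 CPM against 160 and 112 CPM, and WNT3A was mixed, at 88 and 104 CPM against 109 and 79.7 CPM. RSPO3, a secreted amplifier of WNT signalling also named as a marker of these cells, was not higher in them in both replicates. It stood at 125 and 226 CPM in the high cells and 128 and 131 CPM in the other cells, and was far above both in RSPO2-expressing cells, at 1291 and 1185 CPM. RSPO3 was detected in 26.0% and 34.7% of the high cells. The cells are therefore called by GLI3 and CDON alone.

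Each replicate gave 3 comparators from its own suspension, all with total UMIs within the range of the high cells. The first was all other cells (1468 and 2064). The second, narrower, was other SOX2-positive cells, with 1 or more SOX2 UMI, under 2 RSPO2 UMIs and under 2 collagen VI UMIs (779 and 1115). The third was RSPO2-expressing cells, with 2 or more RSPO2 UMIs and under 2 collagen VI UMIs (32 and 43), the smallest class. The libraries held 11182089 and 15427708 UMIs, and the high cells 1758682 and 2051585 of them. No cell in the deposited table had more than 3999 detected genes, so deeper cells are not analysed here. The libraries shared 6 barcodes, of which high cells carried 2. High cells were deeper than the other cells, with medians of 7133 and 7626 UMIs against 5166.5 and 5371.5. Their counts from ribosomal protein genes were slightly lower, with medians of 3.41% and 4.94% against 3.9% and 5.41%, and against 4.88% and 8.93% in the other SOX2-positive cells. In RSPO2-expressing cells the medians were 5.54% and 17.5%, the highest of the 3 comparators. A subset of cells set by this share runs through every class: 74.4% and 62.0% of high cells lay under 10%. Of RSPO2-expressing cells 59.4% and 39.5% did. Results that the share moved are given with it, and its part in them was not tested.

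The high cells also resembled each other on genes the rule did not use. Among the 15 nearest neighbours of a high cell, computed without the rule genes, RSPO3, ribosomal protein and mitochondrial genes, 35.1% and 34.2% were high cells. High cells made up 14.4% and 11.6% of the cells compared, and 12.9% and 11.7% of the neighbours of other cells matched for total UMIs. Most neighbours of a high cell were thus not high cells, and the class is a range set by thresholds within a wider population.

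The progenitor label was set against marker genes of the cell types a whole embryo can hold. The 6 neural progenitor markers summed to 1495 and 1629 CPM in the high cells, 1190 and 1220 CPM in the other cells and 1543 and 1529 CPM in the other SOX2-positive cells. The sums were highest in RSPO2-expressing cells, at 1773 and 1969 CPM. SOX2 itself, a transcription factor of neural progenitors, had a UMI in 64.6% and 70.8% of high cells. Thinned to 3000 UMIs a cell, these shares were 50% and 55.3%, only slightly above the 46.3% and 47.0% of thinned other cells. Thinned RSPO2-expressing cells had more, at 61.5% and 76.3%. The thinned shares of cells with 2 or more collagen VI UMIs, a mesenchymal class with medians of 9006.5 and 8351 UMIs, were 17.4% and 11.1%. Before thinning the collagen VI cells had 27.1% and 18.7%. The 6 neuron markers summed to 561 and 497 CPM in the high cells and to 1622 and 1588 CPM in the other cells. The 6 neural crest markers summed to 17.6 and 22.9 CPM with SOX10 and FOXD3 at 0, and the 8 somite markers to 7.39 and 4.39 CPM with TBX6 and PAX1 at 0. The 6 limb and lateral plate markers summed to 30.7 and 34.6 CPM, and the 4 endothelial markers to 16.5 and 9.75 CPM with CDH5 at 0. The 5 mesenchyme markers summed to 60.3 and 81.9 CPM against 1194 and 1167 CPM, a gap that the collagen VI rule favours. Surface ectoderm markers were at 209 and 473 CPM with EPCAM at 0, erythroid markers at 499 and 459 CPM, trophoblast markers at 385 and 379 CPM, and gut and yolk sac endoderm markers at 346 and 392 CPM, the last with FOXA2 among them. Apart from the endothelial markers, at 15.9 and 17.6 CPM in the other cells, each of these sums was higher in the other cells in both replicates. Against the other SOX2-positive cells the order was mixed: surface ectoderm markers stood at 225 and 250 CPM there and trophoblast markers at 399 and 362 CPM, so both sums were higher in the high cells of replicate 2 and lower in those of replicate 1.

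**Figure D1:**
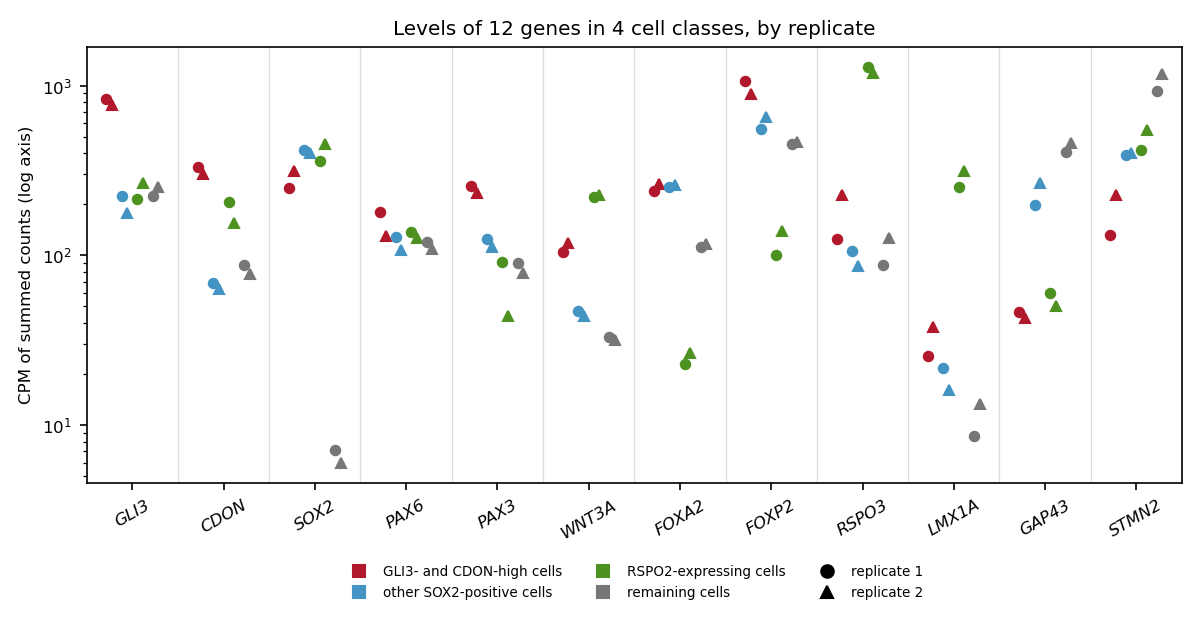
CPM of summed counts (log axis) of 12 genes in 4 cell classes, circles for replicate 1 and triangles for replicate 2. GLI3 and CDON, which chose the red class, stand highest there; PAX3 and FOXP2 also do, RSPO3 and LMX1A stand highest in the green RSPO2-expressing class, and GAP43 and STMN2 are lower in the red class than in the blue and grey ones.

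Against all other cells, HS6ST2, AFF3, SHROOM3 and PRTG were among the genes with the largest increases in the high cells, and neuronal and mesenchymal genes such as STMN4 and COL1A1 among those with the largest decreases. Of 13164 genes tested with edgeR's quasi-likelihood test, 1769 were higher (13.4%) and 1888 lower (14.3%) at an adjusted p under 0.05. Most differences were small: 104 genes were higher and 846 lower by at least 2-fold, and the median log2 fold change over all genes was -0.05. HS6ST2, a heparan sulfate 6-O-sulfotransferase, stood at 258 and 194 CPM in the high cells and 79.1 and 73.1 CPM in the others. Its log2 fold change was 1.58 (SE 0.11, adjusted p = 3.16e-09), and the replicates of the classes did not overlap. AFF3, a component of transcription elongation complexes, stood at 913 and 718 CPM against 329 and 285 CPM (log2 1.43, SE 0.11). SHROOM3, an actin-binding protein of apical constriction in the neural plate, stood at 963 and 849 CPM against 365 and 340 CPM (log2 1.39, SE 0.11). PRTG, protogenin, an immunoglobulin superfamily receptor of the early neural tube, had the highest level of the 15 genes with the largest increases, at 1383 and 1160 CPM against 562 and 525 CPM (log2 1.25, SE 0.12). Those 15 genes also held IL1RAPL2, COL14A1, PIWIL1, PLD5, RAPGEF5, CFAP299, GRM8, WNT3A, PAX3 and the DNA repair genes POLQ and BRIP1, with log2 fold changes between 1.23 and 1.61. For each of them both high sums stood above both other sums.

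The 10 genes lowest against all other cells came from several tissues. PRP1, a prolactin-related protein of trophoblast, had 2 UMIs in the high cells and 1026 in the others, a pooled level 92.8 times lower (95% exact interval 25.6 to 767, counting error only). S100G, a calcium-binding protein, PENK, the enkephalin precursor, KLK1, S100A10, A2M and SRGN had log2 fold changes from -6.15 to -4.13. S100G differed between replicates, at 2.27 and 0.487 CPM against 55.8 and 132 CPM, with log2 ratios of -4.12 and -6.48. The neuronal adhesion gene NCAM2 stood at 3.41 and 2.44 CPM against 119 and 67.5 CPM, and STMN4, a neuronal stathmin, at 5.69 and 2.44 CPM against 86.2 and 84.9 CPM. COL1A1, a fibrillar collagen of mesenchyme, stood at 18.8 and 26.3 CPM against 433 and 367 CPM. Since cells with collagen VI were kept out of the high class, low collagen I is partly set by the rule.

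The narrower comparison, with other SOX2-positive cells, kept collagen VI cells out of both sides. Of 12808 genes, 1749 were higher in the high cells (13.7%) and 1700 lower (13.3%), and 155 and 338 of all genes tested differed at least 2-fold. Many of the leading genes recurred, and the comparisons share the high cells and many comparator cells, so the recurrence is no independent support. PLD5, a member of the phospholipase D family, stood at 153 and 140 CPM against 48.3 and 45.5 CPM (log2 1.65, SE 0.13, adjusted p = 3.38e-09). HS6ST2 stood at 78.4 and 69.4 CPM in the comparator (log2 1.61, SE 0.11) and AFF3 at 284 and 240 CPM (log2 1.64, SE 0.13). IL1RAPL2, an interleukin-1 receptor family protein of synapses, stood at 60.8 and 41.4 CPM against 9.51 and 13.5 CPM (log2 2.09, SE 0.27). Its adjusted p was 7.68e-05, but 0.084 when only high cells with a SOX2 UMI were kept and 0.19 in cells with a ribosomal share of 10% or more. The lowest genes were PENK, the secretory granule gene SCG3, LOC508098, the growth cone gene GAP43, DCN and HES6, an inhibitor of HES1 in nascent neurons, with log2 fold changes from -5.34 to -1.85. SCG3 stood at 11.4 and 10.2 CPM against 58.6 and 63.9 CPM.

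Hedgehog pathway genes were higher more than lower in the high cells. Of the 22 tested against other cells, apart from GLI3 and CDON, 9 were higher and 2 lower with a median log2 fold change of 0.43, beside 13.4%, 14.3% and -0.05 over all genes. Against other SOX2-positive cells 8 of 22 were higher and 2 lower, or 36.4% and 9.09% beside 13.7% and 13.3%, with a median of 0.45. Of those 8, 5 kept the call without the replicate block, 6 among cells with a ribosomal share under 10% and 0 among cells at 10% or more, and of the 9 against other cells DESeq2 kept 4 (DISP1, GLI2, HHIP and PTCH1). Among ligand genes, SHH, the Sonic hedgehog ligand, was lower. It stood at 22.2 and 24.4 CPM in the high cells, 48.7 and 59.3 CPM in the other cells and 72.9 and 83.6 CPM in the SOX2-positive cells. Against the last its log2 fold change was -1.74 (SE 0.16, adjusted p = 3.5e-08), and no sums overlapped. DISP1, which releases lipid-modified hedgehog from producing cells, was higher, at 247 and 220 CPM against 135 and 137 CPM (log2 0.78, SE 0.12, adjusted p = 5.8e-05 against SOX2-positive cells). SCUBE1, a secreted protein that aids hedgehog release, stood at 35.8 and 37.5 CPM against 21.4 and 18.7 CPM (log2 0.89, SE 0.18).

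At the receptors, PTCH1, the hedgehog receptor and itself a target of the pathway, stood at 231 and 202 CPM in the high cells and 168 and 150 CPM in the SOX2-positive cells (log2 0.45, SE 0.10, adjusted p = 0.001). BOC, the coreceptor most like CDON, stood at 78.5 and 63.4 CPM against 50.9 and 50.4 CPM (log2 0.48, SE 0.15, adjusted p = 0.017). LRP2, an endocytic receptor that takes up Sonic hedgehog, stood at 32.4 and 26.3 CPM against 15.6 and 12.8 CPM (log2 1.07, SE 0.25). HHIP, a membrane protein that sequesters hedgehog ligand and is a target of the pathway, stood at 159 and 103 CPM against 101 and 88.9 CPM (log2 0.46, SE 0.12). BOC and HHIP both lost the call with DESeq2, without the replicate block and in both ranges of the ribosomal share. When only high cells with a SOX2 UMI were kept, 4 of the 8 genes higher against SOX2-positive cells kept the call (DISP1, GLI2, PTCH1 and SCUBE1). GAS1, a further coreceptor, stood at 11.9 and 16.6 CPM against 11.1 and 10.9 CPM and did not pass the test (adjusted p = 0.31). SMO, the signal transducer, stood at 85.3 and 79.9 CPM against 79.6 and 77.7 CPM and did not pass either (adjusted p = 0.70).

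Among the transcription factors, GLI2, the main activator of the GLI family, had the largest increase of the list. It stood at 39.8 and 35.6 CPM in the high cells, 14.4 and 14.5 CPM in the other cells and 12.1 and 14.2 CPM in the SOX2-positive cells. Its log2 fold changes were 1.40 (SE 0.17, adjusted p = 7.9e-06) and 1.5 (SE 0.21, adjusted p = 1.2e-05), and both high sums lay above all others. In cells with a ribosomal share of 10% or more the values were 0.73 and 0.88 and did not pass (adjusted p = 0.24 and 0.30). GLI1, the usual readout of hedgehog activity, was near the limit of detection, with 8 and 10 UMIs over all high cells, 4.55 and 4.87 CPM against 3.37 and 2.89 CPM in SOX2-positive cells (adjusted p = 0.42). SUFU, which restrains GLI proteins, stood at 67.7 and 56.5 CPM against 62.0 and 51.4 CPM (adjusted p = 0.49). FOXF2, a mesenchymal target of the pathway, was lower at 1.14 and 1.95 CPM against 6.93 and 5.65 CPM, with only 2 and 4 UMIs over all high cells. It lost the call in cells with a ribosomal share of 10% or more and without the cells in the upper 10% of total UMIs. With DESeq2 and in cells under 10% it got no adjusted p.

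**Figure D2:**
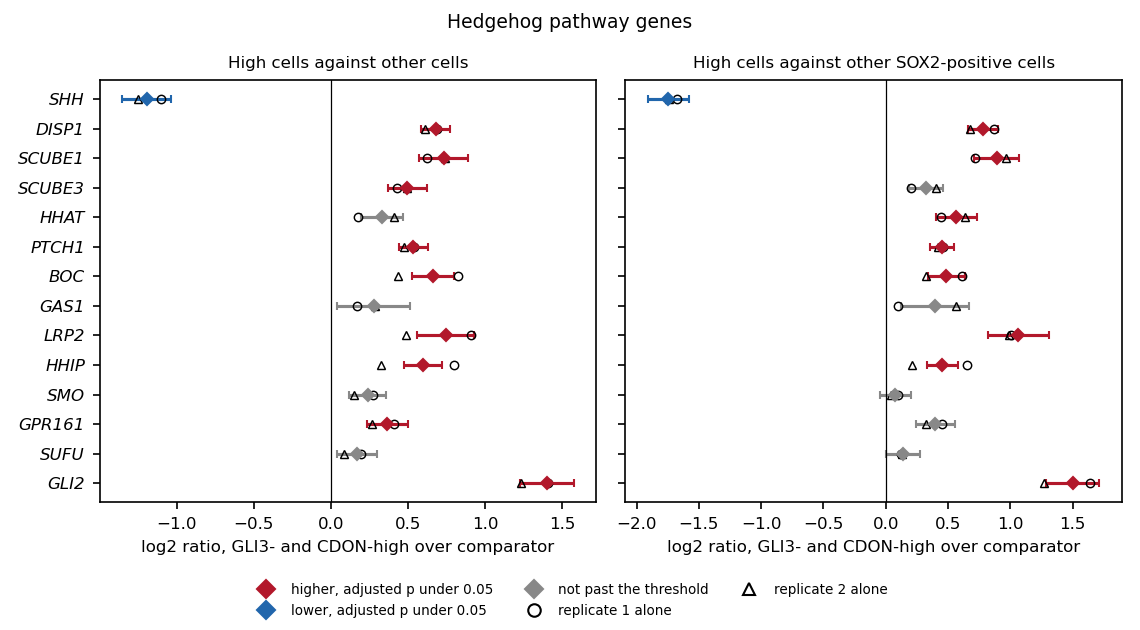
Log2 ratio of the high cells over all other cells (left) and over other SOX2-positive cells (right) for hedgehog pathway genes: diamonds with bars are edgeR estimates ± SE over 2 replicates, open symbols the log2 CPM ratio of each replicate. SHH lies below 0 on both sides (-1.19 and -1.74), and GLI2 lies farthest above 0 (1.40 and 1.5).

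Of 18 dorsal neural tube genes tested against other cells 7 were higher and 3 lower, with a median of 0.36, or 38.9% and 16.7% beside 13.4% and 14.3% of all genes. Against SOX2-positive cells 5 were higher and 1 lower, or 27.8% and 5.56% beside 13.7% and 13.3%. PAX3, a transcription factor of dorsal progenitors and neural crest, stood at 256 and 233 CPM in the high cells and 125 and 112 CPM in the SOX2-positive cells (log2 1.06, SE 0.10, adjusted p = 5.64e-08). WNT3A, a roof plate ligand, stood at 105 and 117 CPM against 46.7 and 43.7 CPM (log2 1.31, SE 0.13, adjusted p = 4.85e-08). ZIC4, a zinc finger factor of the dorsal tube, stood at 142 and 153 CPM against 110 and 96.9 CPM (log2 0.52, SE 0.12). For these 3 genes the replicates of the classes did not overlap, and PAX3 and WNT3A also kept the call without the block, with DESeq2 and in both ranges of the ribosomal share. BMP4 had 3 UMIs in the high cells and 228 in the other cells, a level 13.7 times lower (95% exact interval 4.64 to 67.1). Against SOX2-positive cells BMP4 did not pass (log2 -1.58, SE 0.82, adjusted p = 0.16).

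Of 9 ventral neural tube genes tested against other cells, 3 were higher (FOXA2, IRX3 and IRX5) and 2 lower, beside 13.4% and 14.3% of all genes, a list too short to read a share from. DESeq2 called none of the 3 higher genes. Against SOX2-positive cells none of 10 was higher at an adjusted p under 0.05 and 3 were lower, NKX2-2 and CORIN among them. Of all genes 13.7% were higher and 13.3% lower. Against other cells the adjusted p of FOXA2 was 0.0044, and 0.064 without the replicate block and 0.096 with DESeq2. FOXA2, a floor plate and endoderm transcription factor, stood at 238 and 264 CPM in the high cells against 252 and 258 CPM in the SOX2-positive cells (adjusted p = 0.93), so the sums overlapped. Among cells with a ribosomal share under 10% it was higher in the high cells (log2 0.39, adjusted p = 0.023). NKX2-2, a ventral factor next to the floor plate, stood at 4.55 and 4.39 CPM against 16.2 and 12.9 CPM (log2 -1.67, SE 0.37, adjusted p = 0.00145). FOXP2, a forkhead factor, stood at 1062 and 896 CPM against 553 and 649 CPM (log2 0.71, SE 0.11, adjusted p = 4.69e-05). In cells with a ribosomal share of 10% or more its log2 fold change was 0.28 (adjusted p = 0.23).

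Of 17 neural progenitor genes tested against other cells 8 were higher and 3 lower, with a median of 0.34. These were 47.1% and 17.6%, beside 13.4% and 14.3% of all genes. Against SOX2-positive cells 5 of 16 were higher and 2 lower with a median of 0.11. These were 31.3% and 12.5%, beside 13.7% and 13.3% of all genes. The lower calls thus lay near the share of all genes in both comparisons. DESeq2 kept 3 of the 8 (HMGA2, LIN28B and NES), and without the replicate block 2 of the 5 stayed (HMGA2 and LIN28B). HMGA2, a chromatin protein of early stem and progenitor cells, stood at 464 and 387 CPM against 227 and 222 CPM in SOX2-positive cells (log2 0.92, SE 0.10, adjusted p = 1.75e-07). LIN28B, a repressor of let-7 microRNA processing, stood at 389 and 333 CPM against 241 and 212 CPM (log2 0.68, SE 0.10). PAX6, a factor of neural progenitors, stood at 179 and 130 CPM against 128 and 108 CPM (log2 0.39, SE 0.11), so the replicate 2 sum of the high cells lay only just above the comparator. FABP7, a radial glial fatty acid carrier, was lower at 42.6 and 56.1 CPM against 85.8 and 92.7 CPM (log2 -0.85, SE 0.14), but among cells with a ribosomal share under 10% it had the opposite sign and did not pass (0.27, adjusted p = 0.61). SOX2 stood at 248 and 314 CPM in the high cells and 253 and 261 CPM in all other cells (adjusted p = 0.27).

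None of 19 neuron genes was higher against other cells and 15 were lower, with a median of -1.63. Against SOX2-positive cells 2 of 17 were higher, RBFOX3 and SNAP25, and 10 lower, with a median of -0.85. The lower shares were 78.9% and 58.8%, beside 14.3% and 13.3% of all genes. The 11.8% higher against SOX2-positive cells lay near the 13.7% of all genes. GAP43 stood at 46.6 and 42.9 CPM in the high cells, 199 and 267 CPM in SOX2-positive cells and 279 and 329 CPM in all other cells. Its log2 fold change against SOX2-positive cells was -2.38 (SE 0.13, adjusted p = 6.1e-12). The neuronal tubulin TUBB3 stood at 42.1 and 49.2 CPM against 142 and 142 CPM (log2 -1.63, SE 0.14), and the RNA-binding ELAVL4 at 29.6 and 25.8 CPM against 86.9 and 93.2 CPM (log2 -1.70, SE 0.15). DLL3, a Notch ligand family member of nascent neurons, stood at 5.12 and 2.92 CPM against 39.8 and 35.2 CPM (log2 -3.23, SE 0.35). DCX, a microtubule protein of migrating neurons, differed from its list: at 89.3 and 61.9 CPM against 88.7 and 74.9 CPM it did not pass against SOX2-positive cells (adjusted p = 0.53).

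Of 44 cell cycle genes 20 were higher and 1 lower against other cells, with a median of 0.31, and 13 were higher and 1 lower against SOX2-positive cells, with a median of 0.07. These were 45.5% and 2.27% beside 13.4% and 14.3% of all genes, and 29.5% and 2.27% beside 13.7% and 13.3%. POLA1, the catalytic subunit of DNA polymerase alpha, stood at 259 and 214 CPM against 118 and 110 CPM in SOX2-positive cells (log2 1.05, SE 0.10, adjusted p = 4.34e-08). The recombination gene BRCA2 stood at 147 and 116 CPM against 78.4 and 74.2 CPM, and the spindle checkpoint kinase BUB1B at 95.0 and 91.1 CPM against 63.6 and 54.4 CPM (log2 0.78 and 0.67, SE 0.12 and 0.13). MKI67, a proliferation marker, stood at 98.9 and 112 CPM against 86.5 and 71.7 CPM (log2 0.43, SE 0.13, adjusted p = 0.0165). It had a UMI in 35.4% and 37.3% of high cells, or 22.6% and 21.6% after thinning to 3000 UMIs, against 17.4% and 15.9% in thinned SOX2-positive cells and 13.0% and 17.5% in thinned collagen VI cells. Other cycle genes did not follow: CDK1, the mitotic kinase, stood at 39.8 and 39.5 CPM against 48.9 and 39.2 CPM (adjusted p = 0.58), and ASPM was the lower gene.

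Among signalling genes, of 42 WNT pathway genes 14 were higher and 4 lower against other cells, and 13 and 1 of 40 against SOX2-positive cells, with medians of 0.07 and 0.14. These were 33.3% and 9.52% beside 13.4% and 14.3% of all genes, and 32.5% and 2.5% beside 13.7% and 13.3%. ROR2, a WNT5A receptor, stood at 144 and 145 CPM against 54.9 and 50.8 CPM in SOX2-positive cells (log2 1.46, SE 0.12, adjusted p = 1.09e-08). Its ligand WNT5A stood at 33.6 and 31.2 CPM against 20.2 and 18.8 CPM (log2 0.74, SE 0.19). The heparan sulfate proteoglycan GPC6 stood at 1236 and 907 CPM against 529 and 491 CPM (log2 1.07, SE 0.12). The WNT carrier WLS stood at 330 and 315 CPM against 216 and 206 CPM, and ZNRF3, a ligase that removes frizzled receptors, at 440 and 362 CPM against 245 and 251 CPM. TCF7L1, a TCF family factor, stood at 236 and 186 CPM against 121 and 116 CPM (log2 0.83, SE 0.11). In these 6 genes no high sum reached down to a comparator sum.

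Of 32 BMP and TGF-beta genes 8 were higher and 8 lower against other cells, and of 31 tested against SOX2-positive cells 9 were higher and 5 lower. The shares were 25% and 25%, beside 13.4% and 14.3% of all genes, and 29.0% and 16.1%, beside 13.7% and 13.3%. BMPR1B, a type I BMP receptor, stood at 756 and 566 CPM against 320 and 314 CPM (log2 1.06, SE 0.11, adjusted p = 1.33e-07), and the inhibitory SMAD6 at 168 and 155 CPM against 107 and 90.2 CPM (log2 0.72, SE 0.11). Lower were the BMP targets ID2 and ID4, the secreted antagonists NOG and FST, and BAMBI, a pseudoreceptor, which stood at 18.2 and 21.9 CPM against 38.6 and 31.7 CPM. Among cells with a ribosomal share of 10% or more BAMBI did not pass (log2 0.0032).

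In the Notch list 5 of 21 genes were higher and 2 lower against other cells, or 23.8% and 9.52% beside 13.4% and 14.3% of all genes. Against SOX2-positive cells 4 of 20 were higher and 2 lower. The latter shares, 20% and 10%, lay near the 13.7% and 13.3% of all genes. NOTCH2 stood at 110 and 87.2 CPM against 63.0 and 67.2 CPM in SOX2-positive cells (log2 0.59, SE 0.14, adjusted p = 0.00247). HES5, a Notch target, stood at 114 and 93.1 CPM against 112 and 126 CPM and did not pass (adjusted p = 0.38). In the FGF list 5 of 17 were higher and 2 lower against other cells, or 29.4% and 11.8% beside 13.4% and 14.3% of all genes. Against SOX2-positive cells 4 of 17 were higher and 2 lower, or 23.5% and 11.8% beside 13.7% and 13.3% of all genes. FGFR2 stood at 159 and 163 CPM against 89.3 and 85.7 CPM (log2 0.89, SE 0.11, adjusted p = 1.48e-06), and FGF10 was lower at 1.71 and 1.46 CPM against 9.51 and 7.36 CPM.

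Adhesion, guidance and matrix genes were called in both directions. Of 43 adhesion and guidance genes 11 were higher and 19 lower against other cells, and 14 and 9 against SOX2-positive cells. These were 25.6% and 44.2% beside 13.4% and 14.3% of all genes, and 32.6% and 20.9% beside 13.7% and 13.3%. CDH2, N-cadherin of the neural epithelium, stood at 1294 and 1076 CPM against 673 and 687 CPM (log2 0.80, SE 0.11). UNC5C, a netrin receptor, stood at 1484 and 1194 CPM against 664 and 613 CPM (log2 1.07, SE 0.11). The cadherin CDH8 was lower at 7.39 and 1.95 CPM against 15.8 and 18.4 CPM. Of 34 matrix genes 7 were higher and 17 lower against other cells, and 12 and 7 against SOX2-positive cells. The matrix shares were 20.6% and 50%, and 35.3% and 20.6%, beside the same shares of all genes. Basement membrane genes were among the higher ones: COL4A6 stood at 63.1 and 61.4 CPM against 26.9 and 28.3 CPM (log2 1.18, SE 0.15) and LAMA1 at 134 and 128 CPM against 68.9 and 76.1 CPM (log2 0.85, SE 0.12). COL3A1, a fibrillar collagen, was lower at 22.2 and 41.9 CPM against 83.4 and 105 CPM.

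Genes that respond to dissociation stress were lower. None of 24 was higher and 13 were lower against other cells, with a median of -0.52, and 14 were lower against SOX2-positive cells, with a median of -0.46. The lower shares were 54.2% and 58.3%, beside 14.3% and 13.3% of all genes. FOS, an immediate early gene, stood at 150 and 218 CPM in the high cells against 244 and 261 CPM in SOX2-positive cells (log2 -0.46, SE 0.11), and JUN at 562 and 803 CPM against 856 and 898 CPM (log2 -0.37, SE 0.11). KLF4 stood at 19.3 and 16.1 CPM against 47.9 and 39.6 CPM (log2 -1.29, SE 0.20). The neuron list was also mostly lower in these 2 comparisons, whereas the progenitor list had more higher than lower genes. The part of dissociation stress in the results of those lists was not tested, nor was the part of the ribosomal share in this one.

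**Figure D3:**
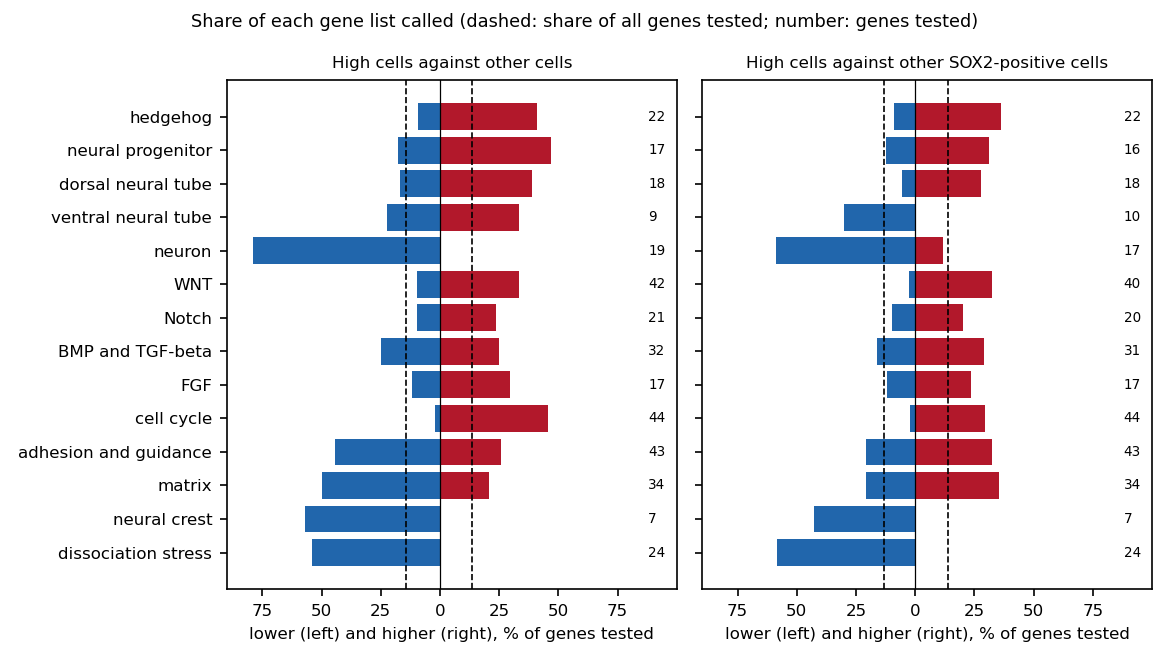
Percent of the tested genes of each list called lower (blue, left) and higher (red, right) in the high cells at an adjusted p under 0.05, with the number tested at the right; dashed lines mark the percent of all genes called. The hedgehog list has 40.9% higher genes on the left panel beside 13.4% of all genes, and the neuron list 78.9% lower genes beside 14.3%.

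RSPO2-expressing cells held 216 and 265 CPM of GLI3 and 207 and 156 CPM of CDON. The rule took cells with 3 or more GLI3 UMIs and a CDON UMI out of the SOX2-positive class. It left such cells in the RSPO2-expressing class, so the order of the classes in these 2 genes is partly set by the rule. Of 12808 genes, 797 were higher in the high cells (6.22%) and 833 lower (6.5%), with a median log2 fold change of 0.02. The high cells had more of the ventral factor FOXA2, of FOXP2 and of dorsal PAX3, and less of LMX1A, RSPO1 and OTX1. FOXA2 stood at 238 and 264 CPM against 23.0 and 26.5 CPM (log2 3.26, SE 0.25, adjusted p = 2.34e-09). FOXP2 stood at 1062 and 896 CPM against 101 and 139 CPM (log2 2.93, SE 0.19, adjusted p = 1.56e-10). PAX3 stood at 91.8 and 44.2 CPM in the RSPO2-expressing cells (log2 1.88, SE 0.21). SHH had 2 UMIs in those cells and 89 in the high cells, a level 6.5 times higher in the latter (95% exact interval 1.75 to 54.5). Its adjusted p of 0.014 became 0.074 with DESeq2, 0.18 with 4 or more GLI3 UMIs required, 0.22 without the cells in the upper 10% of total UMIs and 0.92 among cells with a ribosomal share under 10%. The metalloprotease genes ADAMTS18 and ADAMTS20 had 1 UMI each in the RSPO2-expressing cells, which puts them 36.0 times (6.39 to 1426) and 31.6 times (5.61 to 1253) higher in the high cells. COL14A1, AFF3, ANGPT1 and the glycine receptor gene GLRA1 completed the 8 highest, with log2 fold changes between 2.89 and 3.65.

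The genes lower than in RSPO2-expressing cells were led by TRPM3, a cation channel, at 0.569 and 3.41 CPM against 790 and 631 CPM (log2 -8.41, SE 0.36, adjusted p = 5.16e-09). OTX1, a fore- and midbrain factor, had 2 UMIs against 37, a level 127 times lower (95% exact interval 32.6 to 1084). WNT9A, KCNJ6, FAM181B and LINGO2 followed, with log2 fold changes between -4.46 and -4.31. Of 18 dorsal genes 1, PAX3, was higher and 7 lower with a median of -0.76. These were 5.56% and 38.9%, beside 6.22% and 6.5% of all genes. LMX1A, a roof plate factor, stood at 25.6 and 38.0 CPM against 253 and 315 CPM (log2 -3.22, SE 0.23). RSPO1 stood at 5.69 and 18.5 CPM against 115 and 100.2 CPM (log2 -3.14, SE 0.43), and WNT3A, higher than in SOX2-positive cells, was lower here at 105 and 117 CPM against 220 and 227 CPM (log2 -1.07, SE 0.17). WNT3A and LMX1A thus lay between the SOX2-positive and the RSPO2-expressing cells in both replicates. HES5 stood at 427 and 371 CPM in the RSPO2-expressing cells (log2 -2.01, SE 0.21). In the cells with a ribosomal share under 10%, WNT3A had a log2 fold change of -0.56 and did not pass (adjusted p = 0.33). HES5 passed in neither range of the ribosomal share, at -1.94 and -2.07 (adjusted p = 0.47 and 0.48).

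Cell cycle genes were higher than in RSPO2-expressing cells. Of 44 genes 24 were higher (54.5%, beside 6.22% of all genes) and none was lower at an adjusted p under 0.05. The median log2 fold change was 1.06 beside 0.02 over all genes. The ribosomal share was higher in the RSPO2-expressing cells, and its part in these cell cycle results was not tested. TOP2A, a topoisomerase of dividing cells, stood at 245 and 239 CPM against 68.9 and 133 CPM (log2 1.12, SE 0.23, adjusted p = 0.0031). BUB1B stood at 95.0 and 91.1 CPM against 32.1 and 17.7 CPM (log2 1.92, SE 0.32). LEF1, a nuclear effector of WNT signalling, was higher at 180 and 182 CPM against 41.3 and 64.8 CPM (log2 1.63, SE 0.24), whereas the WNT binding protein SFRP2 was lower at 91.5 and 89.2 CPM against 501 and 360 CPM (log2 -2.28, SE 0.15). Of the hedgehog list 4 of 22 were higher (18.2%, beside 6.22% of all genes) and 2 lower (9.09%, beside 6.5%). DESeq2 kept 1 of the 4 (DISP1), the fit without the replicate block 2, and each range of the ribosomal share 1, and neither lower call (GAS1 and LRP2) held in either range. With high cells matched to the RSPO2-expressing cells in total UMIs, 423 genes were higher and 412 lower.

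The high cells were not uniform in PAX3 and FOXA2. PAX3, a dorsal factor, and FOXA2, a ventral one, were each detected in many of them, mostly in different cells. This split was chosen after the values had been seen and is a description without a test. PAX3 without FOXA2 was detected in 91 and 88 high cells (37.0% and 32.5%), and FOXA2 without PAX3 in 70 and 93 (28.5% and 34.3%). Both were detected in 39 and 40 (15.9% and 14.8%), fewer than the 57.6 and 62.8 that the product of the shares gives, and neither in 46 and 50. In the other SOX2-positive cells, which were shallower (medians of 5726 and 6587 UMIs), both were detected in 51 and 64 cells (6.55% and 5.74%), also fewer than the product of the shares, 117 and 158, so the split was present in that class too. The double-positive high cells had median UMIs of 7393 and 8067.5, beside 7158 and 7117.5 in PAX3-only and 7696 and 8740 in FOXA2-only cells. Doublets were not called, and their part in the double-positive cells was not tested. Thinned to 3000 UMIs, PAX3 was in 37.8% and 36.1% of high cells and FOXA2 in 33.5% and 38.0%. In thinned collagen VI cells PAX3 was in 4.35% and 9.52% and FOXA2 in 4.35% and 11.1%.

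The PAX3-only and FOXA2-only high cells differed in hedgehog genes. GLI2 stood at 79.0 and 86.0 CPM in PAX3-only cells and 11.4 and 3.73 CPM in FOXA2-only cells. BOC stood at 136 and 133 CPM against 32.2 and 22.4 CPM, and HHIP at 262 and 167 CPM against 60.6 and 48.5 CPM. SHH went the other way, with no UMI in PAX3-only cells and 66.3 and 47.2 CPM in FOXA2-only cells. PTCH1 differed less, at 251 and 243 CPM against 178 and 173 CPM. GLI3 and CDON, the genes of the rule, stood at 886 and 949 CPM against 727 and 640 CPM, and at 332 and 344 CPM against 290 and 235 CPM.

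Genes outside the pathway differed between the subsets too. FOXP2 stood at 1706 and 1382 CPM in FOXA2-only cells and 245 and 282 CPM in PAX3-only cells. The transcription factor SOX6 stood at 540 and 456 CPM against 147 and 135 CPM, and the repulsive guidance ligand SLIT1 at 195 and 203 CPM against 52.1 and 27.6 CPM. PAX3-only cells had more HES5 (183 and 138 CPM against 36.0 and 58.4 CPM), more PAX6 (262 and 203 CPM against 110 and 67.1 CPM) and more of the secreted growth factor PTN (403 and 482 CPM against 127 and 130 CPM). WNT3A stood at 120 and 161 CPM in PAX3-only, 37.9 and 43.5 CPM in FOXA2-only and 183 and 213 CPM in double-positive cells. TOP2A stood at 303 and 411 CPM in PAX3-only and 182 and 159 CPM in FOXA2-only cells. In each replicate these genes kept the same order. Genes of the dorsal and ventral lists followed the split only in part. Dorsal ZIC2 stood at 226 and 265 CPM in PAX3-only and 138 and 147 CPM in FOXA2-only cells. MSX1, however, stood at 67.9 and 51.9 CPM against 68.2 and 77.0 CPM, and BMP5 at 0 and 6.49 CPM against 22.7 and 28.6 CPM. Ventral CORIN stood at 0 and 3.25 CPM against 24.6 and 14.9 CPM, but IRX5 at 79.0 and 81.1 CPM against 68.2 and 49.7 CPM. RSPO3 was highest in cells with neither factor, at 282 and 553 CPM. The ribosomal share moved with the split: its median was 2.91% and 4.15% in PAX3-only and 5.67% and 16.8% in FOXA2-only cells, and its part in these differences was not tested.

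**Figure D4:**
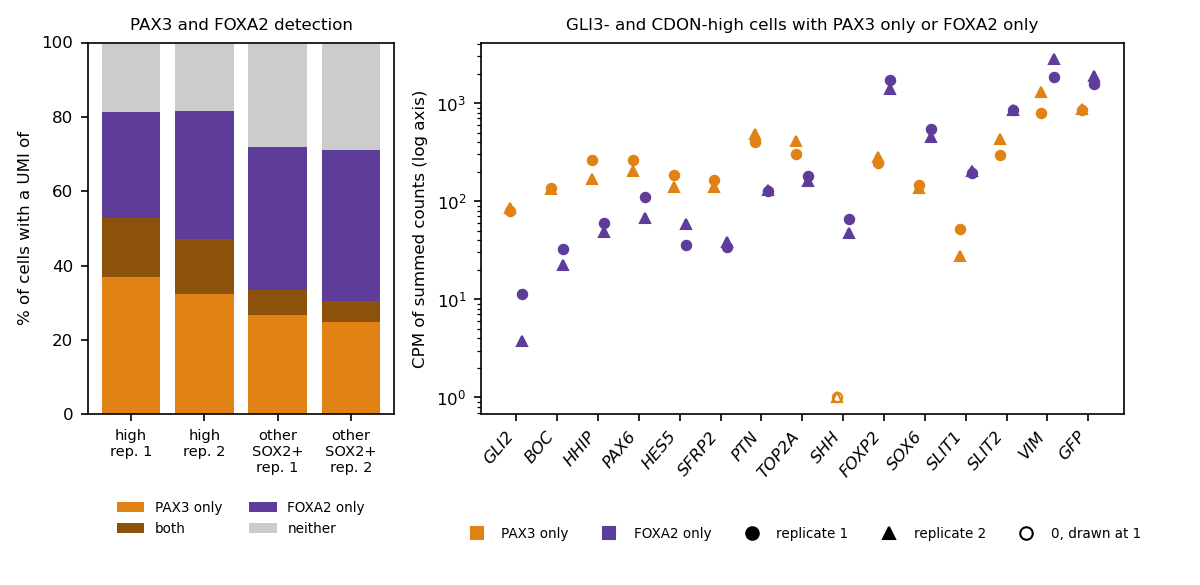
Left, percent of high cells and of other SOX2-positive cells of each replicate with a UMI of PAX3 only, both, FOXA2 only or neither. Right, CPM (log axis) of 15 genes in PAX3-only and FOXA2-only high cells, circles for replicate 1 and triangles for replicate 2: GLI2, BOC and HHIP are higher in PAX3-only cells, and SHH, FOXP2, SOX6 and SLIT1 in FOXA2-only cells.

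High cells with a low and a high ribosomal share also differed. GLI3 stood at 978 and 1033 CPM in those under 10% and at 542 and 518 CPM in those at 10% or more, and CDON at 392 and 396 CPM against 215 and 208 CPM. HS6ST2 showed a wider gap, at 341 and 304 CPM against 92.0 and 89.7 CPM, and PAX3 stood at 321 and 338 CPM against 128 and 134 CPM. FOXA2 was at 212 and 193 CPM in the low-share and 291 and 331 CPM in the high-share cells. The comparisons were therefore repeated within each range. Against other cells, 1638 genes were higher among cells under 10%, of which 1397 were also higher over all cells. Among cells at 10% or more 712 were higher and 620 of them were shared. Against SOX2-positive cells, 1335 and 223 genes were higher in these ranges.

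GFP, a row of the deposited table, was lower in the high cells, at 1101 and 1386 CPM against 1816 and 1976 CPM in all other cells (log2 -0.59, SE 0.13, adjusted p = 0.0021) and 2435 and 2525 CPM in SOX2-positive cells (log2 -1.0, SE 0.11). It had a UMI in 81.7% and 82.7% of high cells, or 73.0% and 74.5% after thinning. Among thinned cells of the other classes, the shares were 73.9% and 78.7% in all other cells and 83.2% and 87.2% in SOX2-positive cells. In thinned collagen VI cells they were 30.4% and 34.9%. Within the high cells GFP stood at 844 and 870 CPM in PAX3-only and 1568 and 1904 CPM in FOXA2-only cells. The labels do not tie GFP to host or stem cell origin.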

How the data were processed

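The authors deposited raw UMI counts per gene and cell; per the submitters' processing notes they used Cell Ranger (bosTau9 build), R 4.1.2 and Seurat 4.3.0. No source used here gives the Cell Ranger version, the annotation or the sort gate. Counts were summed per class and replicate and tested with edgeR 4.0.16 in R 4.3.3 (TMM, filterByExpr, robust quasi-likelihood test, Benjamini-Hochberg adjustment over all genes tested, threshold 0.05). The code was also run on simulated counts with the same spread for every gene, no replicate effect and no selection of cells. That run checks the code and does not bear on calls for classes picked by UMI counts. Replicate was a block because classes of 1 number come from 1 suspension. Residual degrees of freedom were 1 (all other cells) and 3 (the 4-class fit), with medians of 17.51 and 22.01 lent by all genes. Neighbours used scanpy 1.11.5 (2000 variable genes, 30 principal components). Thinning left out 16 high cells in each replicate. Genes of the rule, RSPO3, and SOX2 where it chose a class, were not tested. Named genes were the most changed with 50 CPM or more, the same sign in both replicates and a call, up to 4 called genes a list, and all hedgehog, progenitor and neural tube list genes; GFP and others named beside them were chosen after their values were seen. Members and lists were chosen with earlier results of these data known. Doublets were not called. Genes such as PRP1 with near-identical relatives are uncertain, as are overlapping and antisense genes. Some genes of the lists count in the totals but are not reported here.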

Additional observations from a re-analysis of the deposited data

How the results depend on the processing

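Beside the reported 1769 higher and 1888 lower genes against other cells, 1749 and 1700 against SOX2-positive cells and 797 and 833 against RSPO2-expressing cells, the counts fell under some alternatives. With no replicate block they were 1005 and 1130, 1067 and 708, and 513 and 427. With DESeq2 they were 550 and 463 against other cells and 1142 and 761 against SOX2-positive cells, leaving out genes with no adjusted p. Among cells with a ribosomal share of 10% or more they were 712 and 996, 223 and 258, and 155 and 197. Among cells under 10%, 1025 genes were lower against SOX2-positive cells, and 260 and 171 were called against RSPO2-expressing cells. Keeping only high cells with a SOX2 UMI gave 810 and 696, and matching high cells in depth to RSPO2-expressing cells gave 423 and 412. These 2 settings were chosen after seeing the data. So were leaving out the cells in the upper 10% of total UMIs and matching 1 SOX2-positive cell to each high cell in depth. The planned match of 3 SOX2-positive cells to each high cell left medians of 5967 and 7490 UMIs against 7133 and 7626. Fewer cells entered the fits by ribosomal share, by SOX2 UMI and by depth; other causes were not tested. The remaining settings kept each count within 1.5 times.

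Single values that reversed under 10% ribosomal share were, against SOX2-positive cells, APOA1 (0.1546), FABP7 (0.2746) and FOXA2 (0.387, adjusted p = 0.023), and against RSPO2-expressing cells APOA1 (0.0275), GAS1 (7.293) and STMN2 (0.0667). At 10% or more BAMBI was 0.0032 against SOX2-positive cells, and with SOX2 UMIs required HOXC4 was -1.5026. Of these reversed values only that of FOXA2 passed. The edgeR adjusted p was 0.40 for GAS1 and 0.81 for HOXC4, and HOXC4 had 6 UMIs over all high cells and 1 over all other SOX2-positive cells. Leaving out a replicate left no residual degrees of freedom, so it gave log2 ratios of the other replicate and no counts of calls. Without replicate 1 and without replicate 2, 55 and 48 single values against other cells moved by more than the spread between replicates (92 and 99 did not), as did 29 and 26 against SOX2-positive cells (76 and 79 did not) and 19 and 29 against RSPO2-expressing cells (59 and 49 did not), and no called value changed sign. With 30 neighbours the share of high cells among neighbours was 33.8% and 33.0%. The RSPO2-expressing class, with 32 and 43 cells, limits the precision of its comparison.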

Other observations

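Of 13 forebrain and midbrain genes tested against other cells 3 were higher and 4 lower, and of 11 hindbrain and HOX genes 1 was higher and 3 lower, beside 13.4% higher and 14.3% lower of all genes. HOXA3, a hindbrain and anterior trunk HOX gene, stood at 26.7 and 29.2 CPM against 17.7 and 18.5 CPM (log2 0.66, SE 0.18, adjusted p = 0.0102), and HOXB2 was lower at 17.6 and 25.3 CPM against 40.8 and 44.1 CPM (log2 -0.95, SE 0.17, adjusted p = 0.00036; edgeR). OTX2, a fore- and midbrain factor, stood at 11.9 and 13.2 CPM in the high cells, 12.4 and 10.7 CPM in other cells and 156 and 171 CPM in RSPO2-expressing cells. In lists of other tissues, the genes lower against all other cells, beside 14.3% of all genes, were 6 of 12 mesoderm, 4 of 7 neural crest, 5 of 10 mesenchyme, 5 of 9 epithelial, 1 of 3 endothelial, 2 of 5 erythroid, 6 of 8 trophoblast and 4 of 5 endoderm genes. Against SOX2-positive cells, beside 13.3% of all genes, 4 of 11 mesoderm, 3 of 7 neural crest, 3 of 10 mesenchyme, 2 of 10 epithelial and 2 of 4 endoderm genes were lower, and 0 of 3 endothelial, 0 of 5 erythroid and 0 of 8 trophoblast genes passed in either direction. KRT19, an epithelial keratin, was higher there, at 96.1 and 162 CPM against 71.5 and 89.5 CPM (log2 0.68, SE 0.21, adjusted p = 0.043). Against all other cells OGN and FOXA2 were the only genes of those 8 lists that were higher. OGN, a small proteoglycan counted among the mesenchyme genes, stood at 21.0 and 19.0 CPM against 8.10 and 9.02 CPM (log2 1.24, SE 0.23, adjusted p = 0.000586).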
